A study of Mus musculus with 6 samples.

Results

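The vascular basement membrane is the sheet of matrix on which brain endothelial cells sit, and 42 genes that build it, remodel it or anchor cells to it were followed across 6 RNA-seq libraries. The genes were taken by name from a deposited table of 54532 genes, in which each of the 42 names matched 1 row. They comprise 4 collagens, 6 laminin chains, 4 nidogens and proteoglycans, 3 genes for SPARC proteins and fibronectin, 7 for collagen folding, hydroxylation and crosslinking, 8 proteases and inhibitors, and 10 receptors. Of these, 38 reached the level required for testing, and Loxl2, Timp1, Itga2 and Itgb3 did not.

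All 6 libraries came from Df(h22q11)/+ mice, a model of the human 22q11.2 deletion in which 1 of the paired chromosomes lacks the matching region, so treated and control mice shared the deletion. Untreated mice ate irradiated base chow and treated mice ate chow with 0.5% bezafibrate, a fibrate drug that activates PPAR nuclear receptors, for 4 weeks. Their age is given as 12 to 16 weeks. Each library held sorted brain endothelial cells (CD31-positive, CD45-negative and PDGFRb-negative) pooled from 3 brains of 1 sex. The untreated pools are F_1, F_2 and M_1 and the treated pools are F_1, M_1 and M_2, with F in the titles read as female and M as male. Where 3 values are given for a group, they stand in that order. Xist and 4 Y-linked genes matched that reading in each library. Pools of separate animals are the replicates, and wild-type mice were not analysed here.

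Collagen IV trimers and laminin trimers form the separate networks of a basement membrane, and nidogens and the heparan sulfate proteoglycans perlecan and agrin link them. Collagen chains are hydroxylated and folded in the endoplasmic reticulum with the help of prolyl and lysyl hydroxylases and a dedicated chaperone, and lysyl oxidases crosslink some of them after secretion. ADAMTS enzymes and matrix metalloproteinases cut matrix proteins, and TIMPs inhibit them. Integrins, each an alpha chain paired with a beta chain, and dystroglycan hold the cell to this matrix. In brain capillaries endothelial cells, pericytes and astrocytes share the membrane and each deposit parts of it.

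Col4a1 and Col4a2, which encode the chains of the collagen IV trimer found in most basement membranes, lie head to head on mouse chromosome 8 and are read from opposite strands. Their annotated first exons share 22 bases (chr8:11312805-11312826, GRCm38). The stretch is shown because the levels of both genes went together across the libraries, and its part in that was not tested. Timp3 and Adamts9, on other chromosomes, were high in the same libraries. The stretch comes from the RefSeq promoter windows of build GRCm38.p6 (chr8:11312801-11312830). Each line runs 5′ to 3′ on the strand of its gene, and capitals mark the bases that both first exons hold.
Col4a2: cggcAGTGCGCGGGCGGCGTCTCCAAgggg
Col4a1: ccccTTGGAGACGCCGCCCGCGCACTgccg

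Adamts1, a secreted metalloprotease that cuts proteoglycans, had the most negative bezafibrate difference of the 38 tested genes. The 250 bases before its RefSeq start on chromosome 16 (chr16:85803114-85803363, minus strand, GRCm38.p6) are shown 5′ to 3′ with matches to searched motifs in capitals.
Adamts1: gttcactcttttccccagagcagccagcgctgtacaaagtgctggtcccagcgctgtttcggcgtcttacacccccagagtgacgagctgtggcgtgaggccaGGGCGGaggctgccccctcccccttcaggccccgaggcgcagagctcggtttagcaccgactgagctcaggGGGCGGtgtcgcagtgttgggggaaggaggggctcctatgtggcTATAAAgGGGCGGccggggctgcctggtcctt
The motifs searched on both strands were the TATA box TATAAA, the CCAAT box CCAAT, the GC box GGGCGG, the AP-1 site TGANTCA and the E-box CANNTG, the last not marked here. Adamts1 held a TATA box that begins 32 bases before the start, with 1 of its 3 GC boxes 1 base downstream. RefSeq windows of 300 bases, 250 before and 50 after a start, were given for 30 of the 42 genes (33 windows). A GC box was in 28 of the 33 windows, or 84.8%, against 35.7% of all 32851 windows and 46.2% of the 21263 windows of protein-coding genes. A TATA box was in 3 (9.09%, against 13.6% of all), those of Plod1, P4ha1 and Adamts1, and the AP-1 letters were in 0, against 7.81% of all. These windows were not matched for base composition, and matched letters are a description of the sequence.

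The libraries held 16858130 to 20228619 reads recovered from the deposited values. All 14 endothelial markers reached an FPKM (fragments per kilobase, scaled to library size) of 1 in each library, summing to 7153 to 11786 FPKM. Fibroblast markers, the collagens of connective tissue among them, summed to 2.70 to 4.02, with 7 of 10 below 1 in each library and Col6a1 at 0 in at least 1. Pericyte markers remained, at 205 to 370.5 FPKM summed over 11 genes, with 11 at or above 1 in each library. Markers of astrocytes, at 85.6 to 131, and of oligodendrocytes, at 96.1 to 162, were also present. In such pools fewer cells of a type and less RNA per cell cannot be told apart. On the first principal component of the tested genes (39.3% of the variance), untreated M_1 scored 30.3 and bezafibrate F_1 24.4, and the remaining pools -22.6 to 1.62.

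Basement membrane genes spanned a wide range of levels in these cells. Means over the 6 libraries lay above 100 FPKM for 12 of the 38 tested genes, between 10 and 100 for 13 and between 1 and 10 for another 13. Those above 100 were Sparcl1, Sparc, Fn1, Adamts1, Timp3, Col4a1, Itgb1, Serpinh1, Col4a2, Lamb2, P4hb and Agrn. FPKM is scaled by gene length, here close to all annotated exons of a gene merged. The length of the transcripts made in these cells was not measured, so levels can be set side by side between genes only roughly. The 42 genes together made up 1.24%, 1.37% and 1.44% of all FPKM untreated and 1.41%, 1.22% and 1.07% with bezafibrate.

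**Figure D1:**
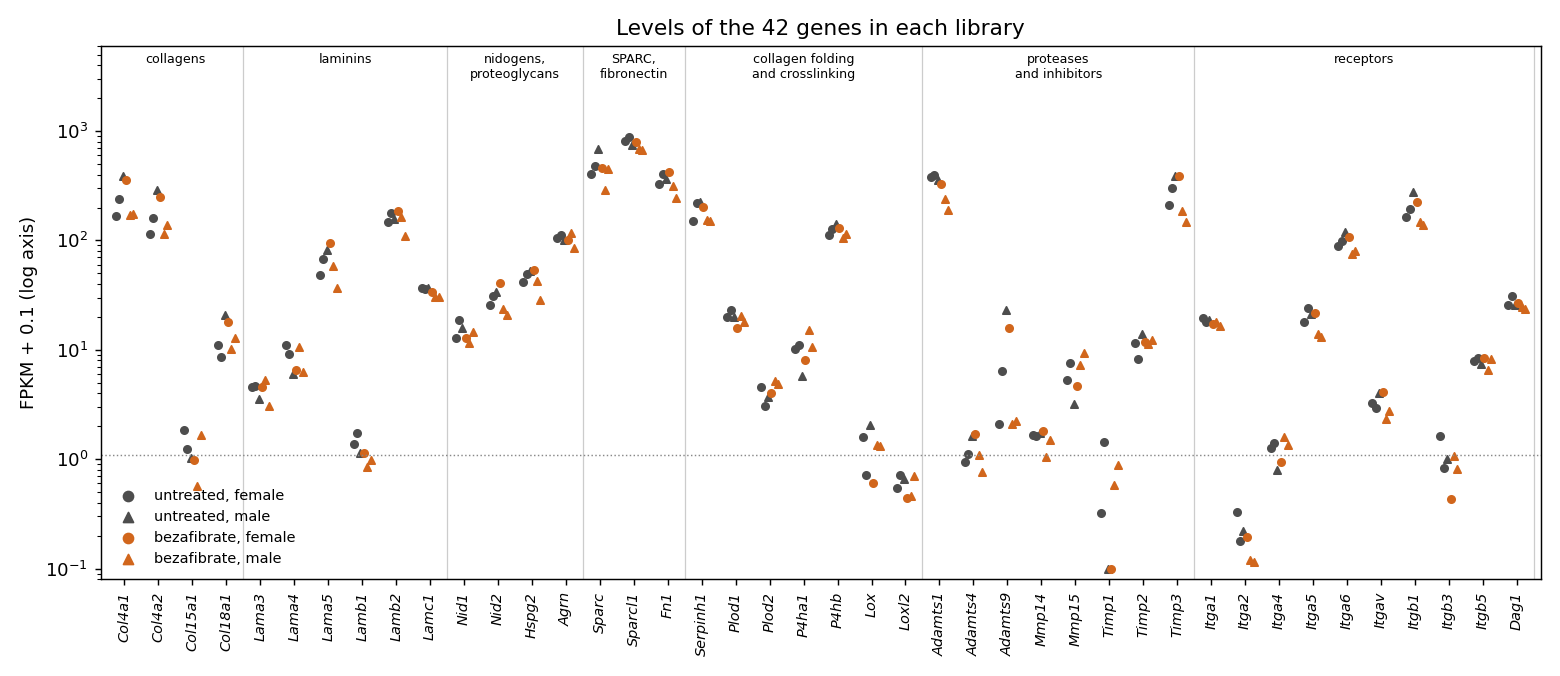
FPKM of each of the 42 genes (y axis, log scale, 0.1 added) in the 6 libraries, by role, with untreated libraries in grey, bezafibrate libraries in orange, circles for females and triangles for males. The dotted line is an FPKM of 1, and for most genes the untreated and bezafibrate points overlap.

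Bezafibrate and untreated libraries were compared with limma on log2(FPKM + 1), with Benjamini-Hochberg adjustment over 11277 genes. Sex was not a covariate in this fit, though most untreated pools were female and most bezafibrate pools male, so sex is partly mixed with chow. None of the 38 tested genes passed an adjusted p of 0.05 (smallest adjusted p = 0.999), where the same fit called 1 gene of 11277, or 0.00887%. By limma-voom on recovered reads none passed either. At an unadjusted p under 0.05 there was 1 of 38, Adamts1, against 4.19% of all genes tested. The untreated and bezafibrate libraries did not overlap for 3 of 38, Adamts1, Lamc1 and Itga1, each lower with bezafibrate, where 4.13% of all genes tested were lower without overlap and 8.42% did not overlap in either direction. A 3 against 3 exact permutation test of a single gene cannot go below p = 0.1. The median SE of the log2 difference was 0.215 over the 38 genes and 0.191 over all genes tested.

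Most differences had a negative sign. Of the 38 genes 32 lay below 0 and 6 above, or 84.2% below, against 51.8% of all genes tested. The median log2 difference was -0.15, against -0.01 over all genes. These counts carry no test, since genes that vary together across libraries are not independent. With the libraries rescaled to TPM (FPKM set to sum to the same total in each) the median of all genes moved to 0.10, and 25 of 38 lay below 0, against 31.7% of all. The members' median minus that of all genes was -0.14 as deposited and -0.16, -0.09 and -0.14 after TPM, quantile and TMM scaling. Markers of the sorted endothelial cells also lay mostly below 0 (13 of 14, median -0.17), as did those of several other cells. Below 0 were 8 of 8 oligodendrocyte (median -0.33), 9 of 11 pericyte (-0.23) and 10 of 10 astrocyte (-0.18) genes. Of all these 0 were called. The libraries were lower without overlap for 2 of the 8 oligodendrocyte and 1 of the 14 endothelial genes, against 4.13% of all genes tested. Smooth muscle markers were even, with 3 below and 3 above (median 0.01). All 7 choroid plexus and ependyma markers lay above 0 (median 0.24), summing to 408 to 463 FPKM untreated and to 456, 621 and 1027 with bezafibrate. The part of these cells in the differences was not tested.

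**Figure D2:**
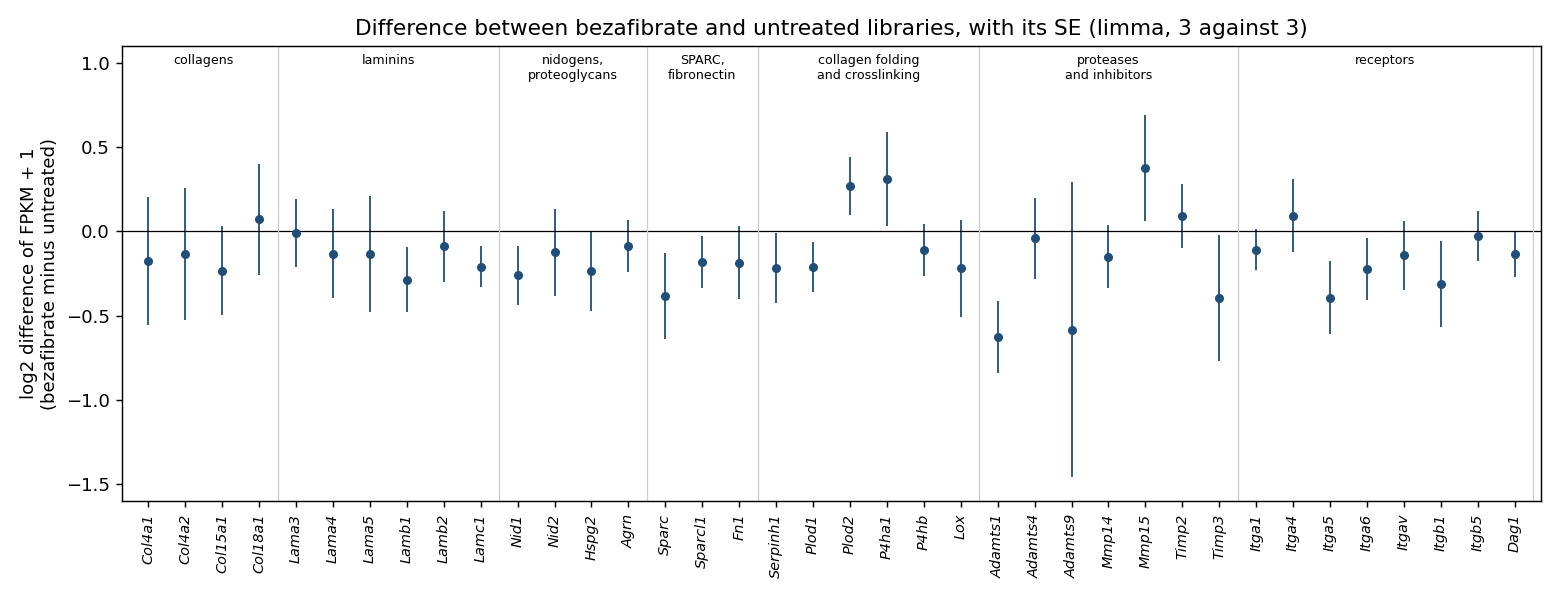
Log2 difference of FPKM + 1, bezafibrate minus untreated (y axis), for the 38 tested genes by role, where points are limma estimates from 3 against 3 libraries and bars are 1 SE. Most points lie below 0 and the longest bar is that of Adamts9 (SE 0.874).

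Among the collagens, the IV chains were abundant and the other collagens were not. Col4a1, the chain present in 2 copies in the usual trimer, had 168, 238 and 388 FPKM untreated and 360.2, 171 and 175 with bezafibrate. Its groups overlapped fully, with untreated M_1 and bezafibrate F_1 above the other libraries (265 ± 113 untreated and 235 ± 108 bezafibrate, SD, n = 3 each; log2 difference -0.17, SE 0.380). Col4a2 had 115, 159 and 287 FPKM in the untreated libraries and 113 to 251 in the bezafibrate libraries, with bezafibrate F_1 the highest of them. The Col4a1 to Col4a2 ratio stayed within 1.25 to 1.51 in the 6 libraries, at 1.44 ± 0.0728 untreated and 1.40 ± 0.132 bezafibrate (SD, n = 3 each), while each chain varied more than that (2.32-fold and 2.53-fold from lowest to highest library).

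Col18a1, whose C-terminal fragment is endostatin, had 10.9, 8.43 and 20.6 FPKM untreated. With bezafibrate it had 17.9, 10.01 and 12.6, so the same libraries were high again, and its log2 difference was 0.07 (SE 0.328). Col15a1, a related collagen with cleavable C-terminal domain, was near the lower limit, with 1.75, 1.14 and 0.933 untreated and 0.875, 0.467 and 1.56 with bezafibrate (-0.23, SE 0.264). In all, 3 of the 4 collagens lay below 0 and 1 above, with a median of -0.15 and 0 called. That median turned to 0.37 with a covariate for library composition (described with the libraries), and to 0.18 without untreated M_1 and 0.06 without bezafibrate M_1.

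The laminin chains showed 1 dominant alpha and 1 dominant beta chain. Lama5, the alpha chain of a major endothelial laminin, had 48.4, 67.8 and 82.4 FPKM untreated and 94.8, 58.2 and 36.7 with bezafibrate. Bezafibrate libraries held both its highest and its lowest value (log2 difference -0.13, SE 0.344). Lama4, the other alpha chain typical of endothelium, had 5.86 to 10.97 untreated and 6.20 to 10.6 with bezafibrate. The Lama5 to Lama4 ratio ranged from 4.41 in untreated F_1 to 14.1 in untreated M_1 and 14.7 in bezafibrate F_1. Lama3, best known from the laminin of epithelia, had 4.48, 4.57 and 3.46 untreated and 4.43, 5.18 and 2.97 with bezafibrate (-0.01, SE 0.201).

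Lamb2 had 146, 179 and 156 FPKM untreated and 186, 164 and 111 with bezafibrate, with overlapping groups (-0.09, SE 0.212). Lamb1, the other beta chain, had 1.27, 1.62 and 1.04 untreated and 1.04, 0.740 and 0.880 with bezafibrate. The groups overlapped only at 1.04, in untreated M_1 and bezafibrate F_1, and the log2 difference was -0.29 (SE 0.193). Per length, Lamb2 was 110 to 222 times as high as Lamb1 in these libraries.

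Lamc1, the gamma chain shared by these laminins, was among the steadiest genes. It had 36.7, 35.9 and 36.9 FPKM untreated and 33.7, 30.6 and 30.1 with bezafibrate. Each bezafibrate library lay below each untreated library (36.5 ± 0.560 against 31.5 ± 1.92, SD, n = 3 each), with a log2 difference of -0.21 (SE 0.121) that limma did not call (adjusted p = 0.999). All 6 laminin differences lay below 0, with a median of -0.13 that was 0.06 without bezafibrate M_2.

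Nidogens and proteoglycans also had 4 of 4 differences below 0 and 0 called, with a median of -0.18 that was 0.02 without bezafibrate M_2. Nid1 (nidogen 1, which bridges laminin and collagen IV) had 12.6, 18.8 and 15.7 FPKM untreated and 12.7, 11.4 and 14.4 with bezafibrate. Its groups overlapped, at a log2 difference of -0.26 (SE 0.176). Nid2 was at 20.5 to 41.0 over the 6 libraries and highest in bezafibrate F_1, and 8.45% of its exon bases are shared with Rtraf on the opposite strand, itself at 24.2 to 30.9 FPKM. Hspg2, which encodes perlecan, ranged from 28.2 in bezafibrate M_2 to 54.0 in bezafibrate F_1. Agrn, which encodes agrin, a binding partner of dystroglycan, had 105, 111 and 101 untreated and 101, 116 and 84.4 with bezafibrate. It was the most abundant of these 4 and had the difference nearest to 0 (-0.09, SE 0.154).

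SPARC, a collagen-binding matricellular protein, its relative encoded by Sparcl1, and fibronectin made up the most abundant group. Sparcl1 led all 42 genes, with 812, 877 and 749 FPKM untreated and 795, 690.3 and 667 with bezafibrate. Bezafibrate F_1 lay among the untreated libraries and the other treated libraries below them (-0.18, SE 0.152). Astrocytes also express Sparcl1. Sparc had 405, 481 and 682 untreated and 459, 290.0 and 449 with bezafibrate, a log2 difference of -0.38 (SE 0.257) with overlap. Fn1, the gene of fibronectin, had 326, 401 and 365 untreated and 422, 316 and 243 with bezafibrate, so that bezafibrate libraries were both the highest and the lowest. All 3 differences lay below 0, with a median of -0.19.

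Genes that fold, modify and crosslink collagen went both ways. Serpinh1, the collagen chaperone HSP47, was the most abundant, with 149, 219 and 224 FPKM untreated and 201, 155 and 149.7 with bezafibrate (-0.22, SE 0.206). P4ha1, a catalytic subunit of prolyl 4-hydroxylase, had 9.98, 10.9 and 5.69 untreated and 8.05, 14.9 and 10.6 with bezafibrate. Its lowest libraries were untreated M_1 and bezafibrate F_1, the reverse of Col4a1, and its log2 difference of 0.31 (SE 0.281) was the most positive of this group. P4hb, the partner subunit that is also protein disulfide isomerase, was at 106 to 141 in the 6 libraries.

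The lysyl hydroxylases differed in sign without a call. Plod1 had a log2 difference of -0.21 (SE 0.146) and Plod2 of 0.27 (SE 0.174), and the Plod1 to Plod2 ratio was 4.41, 7.75 and 5.47 untreated against 3.96, 3.96 and 3.71 with bezafibrate. The groups did not overlap in that ratio, which was chosen after the values were seen. Lox, a lysyl oxidase, had 1.49, 0.618 and 1.95 untreated and 0.508, 1.25 and 1.22 with bezafibrate (-0.22, SE 0.287). Loxl2, a related oxidase below the limit for testing, had 0.339 to 0.613 from 33 to 61 reads. Over the 6 tested genes of this group 4 lay below 0 and 2 above, with a median of -0.16 that was 0.0091 with the composition covariate and -0.03 without untreated M_1.

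Proteases and their inhibitors held the extremes of the 38 genes in both directions. Adamts1 (ENSMUSG00000022893, chromosome 16, 85793827 to 85803113) had 384, 397 and 359 FPKM untreated and 331, 237 and 188 with bezafibrate. Each bezafibrate library was below each untreated one, and the untreated libraries were close together (379.6 ± 19.3 against 252 ± 72.4, SD, n = 3 each). The log2 difference was -0.63 (SE 0.213), with a limma unadjusted p of 0.0199 and an adjusted p = 0.999. Leaving out 1 library at a time gave -0.84 to -0.44, and the adjusted p over all alternatives run ranged from 0.184 to 1.00. Within females the difference was -0.24 and within males -0.76.

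Mmp15, a membrane-type metalloproteinase, had the most positive difference, 0.38 (SE 0.313). It had 5.22, 7.41 and 3.09 FPKM untreated and 4.55, 7.24 and 9.28 with bezafibrate, and the groups overlapped. Mmp14, the membrane-type enzyme that activates pro-MMP2, was lower in level, at 1.54 to 1.65 untreated and 0.955 to 1.71 with bezafibrate. Adamts4, an aggrecanase, was at 0.664 to 1.61 over the 6 libraries. Of the 7 tested proteases and inhibitors 5 lay below 0 and 2 above, with a median of -0.15. It was 0.11 with the composition covariate and 0.09 without untreated M_1.

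Timp3, the TIMP that binds the matrix, had 210.3, 299 and 386 FPKM untreated and 387, 184 and 149 with bezafibrate. Untreated M_1 and bezafibrate F_1 were level and above the other libraries, and the log2 difference was -0.40 (SE 0.374). It shares 21.3% of its exon bases with Syn3 on the opposite strand, which was at 0.318 to 0.934. Timp2 was at 8.14 to 13.8. Timp1, an inducible inhibitor, did not reach the level for testing, with 4, 21 and 0 reads untreated and 0, 9 and 13 with bezafibrate.

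Adamts9 (ENSMUSG00000030022, chromosome 6, 92772699 to 92943492), a secreted protease of the same family, varied more between libraries than any other tested gene of the 38. It had 2.01, 6.28 and 23.3 FPKM untreated and 15.7, 2.02 and 2.13 with bezafibrate. The highest library was 11.6 times the lowest, where the median of the 38 genes was 1.87 times. The group means of 10.5 ± 11.2 and 6.62 ± 7.88 (SD, n = 3 each) therefore describe neither group, and the log2 difference of -0.58 had an SE of 0.874. Of its exon bases 12.0% are shared with A730049H05Rik on the opposite strand, at 0 to 0.677 FPKM.

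Receptors were led by the beta 1 chain. Itgb1, which pairs with most of the alpha chains here, had 162, 194 and 278 FPKM untreated and 223, 147 and 139 with bezafibrate (-0.31, SE 0.256, with overlap). Itga6, a laminin receptor chain, was the highest alpha chain of the list at 74.8 to 118. Itga1, a receptor chain for collagen IV and laminin, was the steadiest of the 38 tested genes, with 19.3, 17.8 and 18.6 untreated and 17.1, 17.8 and 16.5 with bezafibrate. Its groups did not overlap by a margin smaller than their spread (18.6 ± 0.733 against 17.1 ± 0.654, SD, n = 3 each), with a log2 difference of -0.11 (SE 0.120).

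Itga5, the alpha chain of the fibronectin receptor, had 17.9, 24.1 and 21.3 FPKM untreated and 21.8, 13.7 and 12.9 with bezafibrate. Bezafibrate F_1 lay among the untreated libraries and both male bezafibrate libraries below them (-0.39, SE 0.219). Itga4, the alpha chain of VLA-4, had 1.15, 1.31 and 0.705 untreated and 0.835, 1.504 and 1.24 with bezafibrate (0.09, SE 0.217). Itgav, which pairs with the beta 3 and beta 5 chains, was at 2.25 to 4.02, Itgb5 at 6.39 to 8.35 and Dag1, which encodes dystroglycan, at 23.3 to 31.0. Itgb3 was at 0.330 to 1.54 and Itga2, a collagen receptor chain, at 0.0149 to 0.230 (2 to 33 reads), both below the limit for testing. Of the 8 tested receptors 7 lay below 0 and 1 above, with a median of -0.14.

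Spread between libraries, rather than between chow groups, was the larger feature of many of these genes. Untreated M_1 was the highest of the 6 libraries for 12 of the 38 genes, against 22.4% of all genes tested. Bezafibrate F_1 was the highest for another 10, a count whose share over all genes was not computed. Bezafibrate M_2 was the lowest for 16, against 19% of all. Untreated M_1 and bezafibrate F_1 were both above each of the other 4 for 14 of 38, or 36.8%, against 17.1% of all genes tested. These 14 were Col4a1, Col4a2, Col18a1, Lama5, Nid2, Hspg2, P4hb, Adamts4, Adamts9, Mmp14, Timp3, Itga6, Itgav and Itgb1. Both were below the other 4 for P4ha1, Mmp15 and Itga4, 3 of 38, against 14.8% of all.

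The size of this pattern can be read within each chow group. Adamts9 in untreated M_1 was 5.61 times its mean in untreated females, and in bezafibrate F_1 it was 7.58 times its mean in bezafibrate males. The same folds were 1.91 and 2.09 for Col4a1, 2.09 and 1.98 for Col4a2, 2.13 and 1.58 for Col18a1 and 1.56 and 1.56 for Itgb1. They were 0.489 and 0.551 for Mmp15 and 0.545 and 0.630 for P4ha1. In contrast Itga1 stood at 1.00 and 0.999, and Nid1 at 0.998 and 0.987.

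Other measures moved with these libraries, and their part in the values was not tested. The composition ratio, the summed reads of a library over the library size by which its FPKM were scaled, was 0.950, 1.03 and 1.09 untreated and 1.06, 0.889 and 0.897 with bezafibrate, highest in that pair. Endothelial markers summed to 8067, 10058 and 11786 FPKM untreated and 11099, 7153 and 8409 with bezafibrate, again highest in that pair. Slc2a1 alone held 3158, 4430 and 5752 of these sums untreated and 5337, 2705 and 3404 with bezafibrate. Pecam1, Cdh5, Esam and Mfsd2a were also highest in that pair, but not all the markers were. Tek (124 and 131) and Slco1c1 (333 and 322) were lowest in untreated M_1 and bezafibrate F_1. Pericyte markers summed to 336, 370.5 and 205 untreated and 256, 207 and 288 with bezafibrate. With the composition ratio as a covariate the median of the 38 genes was 0.0048, and Col4a1 changed sign to 0.35. Leaving out both libraries sets 2 untreated female against 2 bezafibrate male libraries, so that chow and sex cannot be told apart there. The median was then -0.24 and none of the 38 was called by limma. The log2 difference was -0.21 for Col4a1, -0.10 for Col4a2, 0.21 for Col18a1, -0.30 for Lama5, -0.60 for Timp3, -0.61 for Adamts9, -0.31 for Itgb1, 0.25 for P4ha1, 0.35 for Mmp15 and -0.88 for Adamts1.

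**Figure D3:**
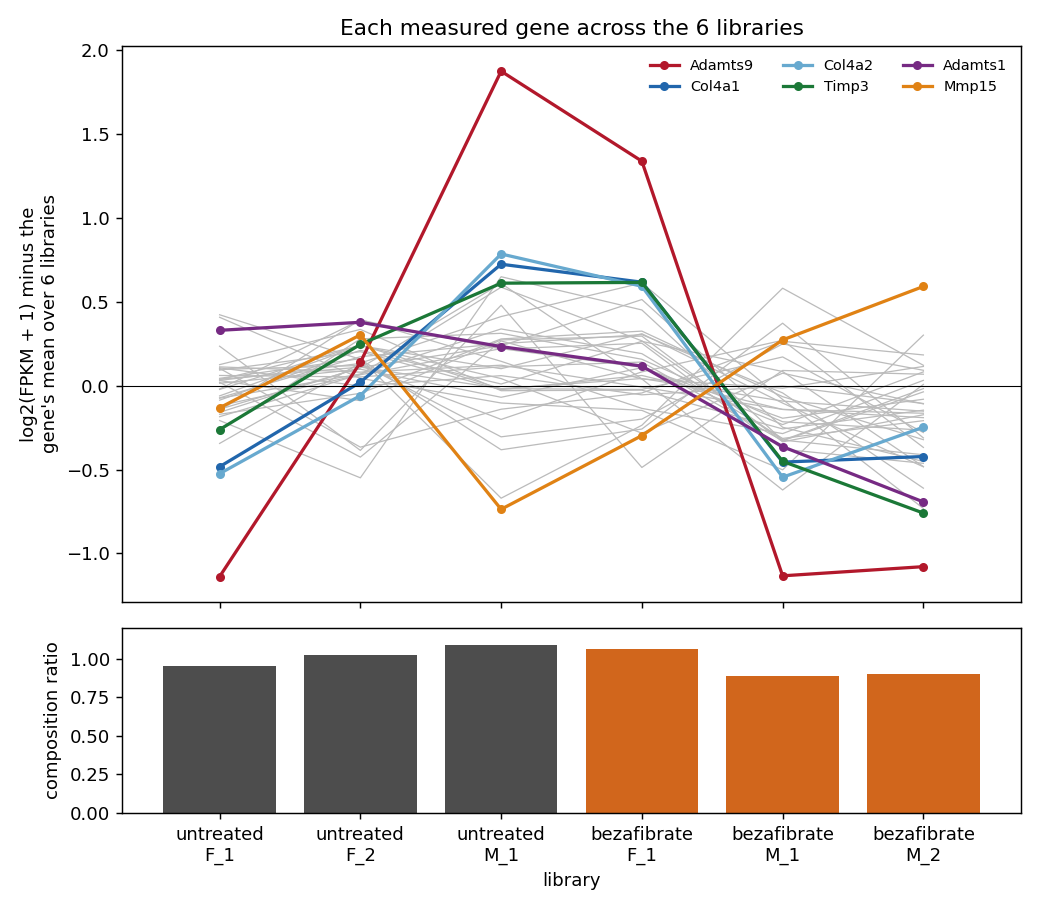
Upper panel, log2(FPKM + 1) of each of the 38 tested genes minus its mean over the 6 libraries (y axis) by library, with 6 genes in colour and the rest in grey. Lower panel, the composition ratio of each library (bars from 0), untreated in grey and bezafibrate in orange. Adamts9, Col4a1, Col4a2 and Timp3 peak in untreated M_1 and bezafibrate F_1, where Mmp15 is low.

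Untreated M_1 is the only untreated male library and bezafibrate F_1 the only treated female one. Bezafibrate minus untreated was above 0 in females and below 0 in males for 21 of the 38 genes, and the other way round for 6. It was below 0 in both for 10, Adamts1, Lamc1, Itga1, Nid1 and Sparcl1 among them, and above 0 in both for 1, Plod2. The median over the 38 genes was 0.08 in females and -0.33 in males. These counts and medians were not computed over all genes tested, so they do not show a trait particular to the 38 genes. For Col4a1 it was 0.85 in females and -1.16 in males, for Timp3 0.62 and -1.22, and for Mmp15 -0.38 and 1.17.

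That difference between the sexes was tested directly by an interaction term, on 2 residual degrees of freedom. Adamts9 was the 1 gene of 38 that limma called (1.84 in females, -2.98 in males, interaction -4.82, adjusted p = 0.0476), where 0.665% of all genes tested were called. At an unadjusted p under 0.05 there were 12 of 38, against 21.3% of all. Among them were Col4a1 (interaction -2.01, adjusted p = 0.0585), Col4a2 (-2.07, adjusted p = 0.0585), Col18a1 (-1.65, adjusted p = 0.0703) and Timp3 (-1.84, adjusted p = 0.0751) in the limma fit. With 1 library in 2 of the 4 cells, a response that differs by sex and a property of these libraries cannot be told apart. The call on Adamts9 did not hold in each alternative, and limma gave it an adjusted p of 0.000389 to 0.215 over them. It was above 0.05 without untreated F_1 (0.0596), bezafibrate M_1 (0.215) or bezafibrate M_2 (0.210), and also with a pseudocount of 0.1 (0.0593), without a filter (0.181), after quantile scaling (0.0594) and after TMM scaling (0.0509).

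**Figure D4:**
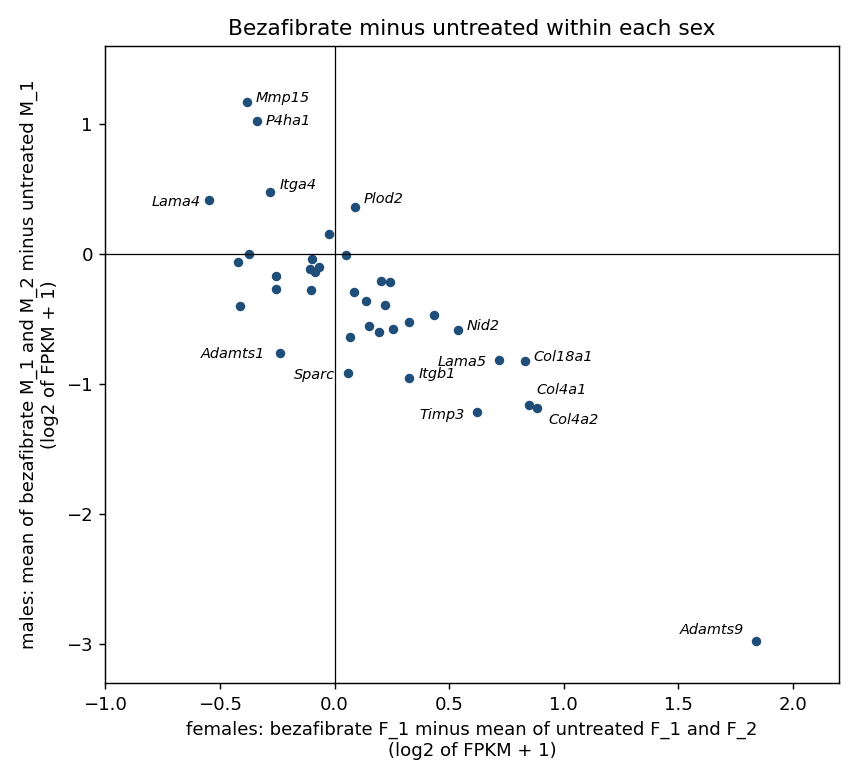
Bezafibrate minus untreated on the log2(FPKM + 1) scale in females (x axis, 1 treated against 2 untreated libraries) and in males (y axis, 2 treated against 1 untreated) for the 38 tested genes, each a point. Many genes lie at lower right, positive in females and negative in males, with Adamts9 at 1.84 and -2.98.

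Sex itself, with treatment as a covariate, gave no call among the 38 genes (limma smallest adjusted p = 1.00), where 3 of 11277 genes, or 0.0266%, were called, namely Xist, Ddx3y and Eif2s3y. At an unadjusted p under 0.05 there were 0 of 38, against 2.94% of all. Male minus female was below 0 for 27 of 38, against 51.6% of all, with a median of -0.06. The most positive was Lox (0.56, SE 0.240) and the most negative Adamts1 (-0.38, SE 0.1999). Male and female libraries did not overlap for Sparcl1 and Lamb1, lower in males, where 7.94% of all genes did not overlap. Without untreated M_1 the median was -0.29 and without bezafibrate F_1 0.03.

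Other genes of the same system gave no call for bezafibrate in any of 6 lists. Of further basement membrane and vessel matrix genes 21 of 40 were tested, 7 above and 14 below 0, with a median of -0.08. The angiogenic matrix gene Egfl7 was at 120.5 ± 7.64 untreated and 139 ± 16.3 FPKM with bezafibrate (SD, n = 3 each, log2 difference 0.20). Emilin1 had the most positive difference, 0.22 (SE 0.150), and thrombospondin 1 (Thbs1) the most negative, -0.52 (SE 0.310). Of further collagen biosynthesis genes 6 lay above and 15 below 0 (21 of 28 tested, median -0.04). Of further proteases and inhibitors 3 lay above and 12 below (15 of 38 tested, median -0.10). Plaur, the urokinase receptor, had 80.4, 135 and 189 FPKM untreated and 149, 39.7 and 47.0 with bezafibrate, the most negative difference there (-0.95, SE 0.514). Mmp28 had the most positive (0.45, SE 0.294). The gelatinases Mmp2 and Mmp9 were below the limit for testing.

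Further matrix receptors had 6 differences above and 8 below 0 (14 of 28 tested, median -0.07). Itga3, a laminin receptor chain, had 21.5, 33.2 and 74.9 FPKM untreated and 58.2, 20.7 and 19.0 with bezafibrate. It was high in the same libraries as Adamts9, and limma called its interaction (-2.96, adjusted p = 0.0468). The machinery that links integrins to actin had 10 above and 22 below 0 (32 of 36 tested, median -0.14). Its most negative were the adaptor Bcar1 (42.1 ± 4.68 untreated and 25.7 ± 9.11 with bezafibrate, SD, n = 3 each, log2 difference -0.73, SE 0.234) and Zyx, which encodes zyxin (-0.72, SE 0.331). Fermt3, a kindlin best known from blood cells, had the most positive (0.69, SE 0.234). Pxn, which encodes paxillin, was the 1 gene of this list with a called interaction (-2.12, adjusted p = 0.0476, limma). Enzymes that build the laminin-binding sugar of dystroglycan had 7 above and 6 below 0 (13 of 15 tested, median 0.02). An interaction at a limma unadjusted p under 0.05 was seen in 5 of 21, 2 of 21, 4 of 15, 5 of 14, 17 of 32 and 3 of 13 tested genes of the 6 lists, in that order. This compares with 12 of the 38 members and 21.3% of all genes tested.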

How the data were processed

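The authors deposited FPKM per gene, made from single-end reads of 75 bases that were de-duplicated and mapped with Salmon, per the labels' protocols, on GRCm38, per the submitters' processing notes. Not given in the sources used here: gene models, strandedness of counting, and the library size behind the FPKM. For the untreated male library the column was matched through that sample's description. FPKM times gene length gave whole reads in each library for 100% of values above 0 (tolerance 0.01 reads), which served for depth, TMM scaling and limma-voom.

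The 11277 genes that reached 1 FPKM in 3 or more of the pools were tested with limma 3.58.1 in R 4.3.3 (eBayes with a trend, two-sided) on log2(FPKM + 1), a scale that understates changes of low genes, and called at an adjusted p under 0.05. The fit was also run on simulated data as a check of the code, and how many changes it finds at the measured spread is not given here. The members, lists and some alternatives were chosen with earlier results of these data known. In each role group the most abundant gene, those with the lowest and highest difference, and genes without overlap were named with each library's value, and Col4a2, Lama5, Nid2, Hspg2, Fn1, Timp3, Adamts9 and other genes given by range were added after their values were seen. Shared names (F_1, M_1) do not mark shared animals, so no pairing was used. Markers of smooth muscle (117 to 170.1 FPKM summed), neurons (13.2 to 19.0), microglia and macrophages (8.27 to 19.5), choroid plexus and ependyma (408 to 1027) and erythrocytes (45.4 to 298) were also summed. Of 700 recomputed values under other settings, 605 kept their sign and call, moved within the spread or stayed close in count. Another 43 changed sign. A filter leaves a gene's log2 difference as it was, so some values could not change and the tally is no measure of robustness. Exon overlaps come from GENCODE M21 and promoters from RefSeq.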

Additional observations from a re-analysis of the deposited data

Results flagged for a closer look

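By the limma test of the interaction, the bezafibrate difference was called as differing between females and males for 3 of the genes described, where 0.665% of all genes tested were called. The interaction was -4.82 for Adamts9 (adjusted p = 0.0476), -2.96 for Itga3 (adjusted p = 0.0468) and -2.12 for Pxn (adjusted p = 0.0476), in log2 units of FPKM + 1. The Adamts9 call was lost on leaving out untreated F_1, bezafibrate M_1 or bezafibrate M_2 (adjusted p = 0.0596, 0.215 and 0.210, limma), and with a pseudocount of 0.1, without a filter and after quantile or TMM scaling (0.0593, 0.181, 0.0594 and 0.0509). The Itga3 and Pxn calls were not recomputed under these settings. All 3 genes were high in untreated M_1 and bezafibrate F_1, the only libraries of their combination of sex and chow, so that sex and library cannot be told apart. Groups of 3 libraries were not examined for single stray values.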

How the results depend on the processing

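Of the 20 members named by rule, 16 changed sign under at least 1 alternative, none past the threshold (lowest adjusted p = 0.142, limma), and the causes were not tested. Adamts1 kept its sign in each alternative run. Values that changed sign were, after TPM scaling, Lama3 0.0942, Lamb2 0.0276, Agrn 0.0294 and Itga1 0.00252, after quantile scaling Lamb2 0.00465, Agrn 0.0375 and Sparcl1 0.0940, and with array weights Lox 0.156. With the composition ratio as a covariate they were Col4a1 0.350, Lamb2 0.0588, Serpinh1 0.00691, Itga4 -0.0726 and Itgb1 0.00882. Without both untreated M_1 and bezafibrate F_1 Lox was 0.155, and with sex as a covariate Lama3 was 0.0630. In females only they were Col4a1 0.848, Lamb2 0.202, Sparc 0.0573, Serpinh1 0.152, P4ha1 -0.338, Mmp15 -0.383, Itga4 -0.281, Itga5 0.0673 and Itgb1 0.326, and in males only Col15a1 0.00307, Col18a1 -0.821 and Lama3 0.152. Leaving out 1 library gave -0.185 to 0.415 for Col18a1, -0.148 to 0.171 for Lama3, -0.526 to 0.144 for Col4a1, -0.0347 to 0.218 for Itga4, -0.244 to 0.129 for Lamb2 and -0.195 to 0.0307 for Agrn.

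With a replicate block on F_1 and M_1, Col18a1 was -0.158, Lama3 0.229, Lamb2 0.212 and Agrn 0.0642, and the medians of laminins 0.125 and of nidogens and proteoglycans 0.0530, with 0 calls over all genes. Deviations of same-numbered libraries correlated at -0.363 (F_1) and -0.299 (M_1), so the numbers were not taken as pairs. The block and these correlations use the numbers of the titles. By its column name the untreated male library would share its number with bezafibrate M_2, and that match was not computed.

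Calls over all genes for bezafibrate, 1 as reported, were 0 with limma-voom, 0 in females only, 81 in males only and 10 with that pair of libraries left out, and 1 to 4 on leaving out 1 library (2 without untreated M_1, 4 without bezafibrate F_1). Of the 38 members 0 were called except in males only, with 1, Adamts9. The males-only fit sets 2 bezafibrate libraries against untreated M_1 alone, and the females-only fit bezafibrate F_1 alone against 2, so each lone library is assumed to vary like the other group. Their median was 0.0757 in females only, -0.327 in males only and -0.257 to -0.0870 on leaving out 1 library. In females only the role-group medians were 0.839 for collagens, 0.0785 for nidogens and proteoglycans, 0.0573 for SPARC proteins and fibronectin, 0.243 for proteases and 0.0590 for receptors. The folding group was at 0.0222 with that pair left out. For sex, calls over all genes were 2 to 5 and the members' median -0.285 to 0.0294 on leaving out 1 library. Members with a called interaction, 1 as reported, were 0 with a pseudocount of 0.1, 8 with FPKM of at least 5, 0 without a filter, 3 after TPM, 0 after quantile and 0 after TMM scaling, 10 with limma-voom, and 0 to 3 on leaving out 1 library, alternatives chosen after seeing the data. The share of all genes with a called interaction was not computed under these settings, so these member counts have no background to be read against. The sex comparison without both libraries was not run, since it cannot be estimated.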
